A study of Mus musculus with 31 samples.

Results

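Glycolysis is represented here by 10 genes, 1 for nearly every step from glucose to lactate: Hk1, Gpi1, Pfkm, Aldoa, Tpi1, Gapdh, Pgk1, Eno2, Pkm and Ldha. They were taken by symbol from the 55536 gene identifiers of the 2 count tables, through the GENCODE M21 annotation. The symbol Aldoa maps to 2 rows, so the 10 genes occupy 11 rows. The longer Aldoa gene model was used, and the other reached at most 76 counts in any of the 31 libraries. The study purified ribosome-bound RNA from sensory neurons of mice with TRAP (translating ribosome affinity purification), in which ribosomes carrying a tagged protein are pulled down with the mRNAs on them, and sequenced it. Every mouse carried the genotype L10a-eGFP-fl/fl, a ribosomal protein L10a fused to green fluorescent protein that Cre recombinase switches on. In Nav1.8-Cre;L10a-eGFP-fl/fl mice the Cre is driven by the gene of the sodium channel Nav1.8 (Scn10a), which most nociceptors use. The negative controls, L10a-eGFP-fl/fl mice without Cre, went through the same purification. Batch 1 held central axons (lumbar dorsal root with spinal cord) and somas (lumbar dorsal root ganglion, DRG). Batch 2 held peripheral axons (sciatic nerve) and a further set of DRG somas. Each of the 8 groups had 4 libraries, labelled as biological replicates, except the Cre-negative peripheral axons with 3. The age, sex, treatment and number of mice behind a library are not given in the labels, so p-values measure the spread between these libraries. Sciatic nerve, dorsal root and spinal cord also hold glia and other cells around the axons. In such bulk samples, fewer neuronal ribosomes and fewer mRNAs per neuron cannot be told apart.

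Glycolysis splits glucose into pyruvate in the cytosol and yields ATP without oxygen, and lactate dehydrogenase turns the pyruvate into lactate and back. In neurons, glycolytic enzymes are carried along the axon and some travel on vesicles, where the ATP they make helps to drive fast axonal transport. Most steps are shared among isozymes that differ between cell types: Eno2 is the neuronal enolase, Aldoc is the aldolase of astrocytes, and Eno3 and Pgam2 are the forms of skeletal muscle.

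Part of the coding sequence of these genes is copied elsewhere in the mouse genome, and this bears on how reads of Gapdh and Pgk1 can be counted. A stretch of Gapdh and one of Tpi1 come from the principal transcripts of GENCODE M21, are 80 bases long and run 5′ to 3′. Capitals in Gapdh mark the 50 bases that more other annotated genes repeat than any other 50 of its coding sequence.
Gapdh, coding bases 400 to 479: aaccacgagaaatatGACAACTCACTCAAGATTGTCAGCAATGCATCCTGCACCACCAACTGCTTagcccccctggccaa
Tpi1, coding bases 434 to 513: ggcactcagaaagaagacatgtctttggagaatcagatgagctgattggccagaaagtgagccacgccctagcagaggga
The capitals of Gapdh occur in 84 other genes, 80 of them pseudogenes. No 50 bases of the Tpi1 stretch occur in another annotated gene, and it is shown for contrast. Over whole transcripts, 82.5% of the 50-base windows of Gapdh and 68.0% of those of Pgk1 were found in at least 1 other gene. For the other enzymes the share was 34.4% for Pkm, 25.3% for Gpi1, 17.1% for Ldha, 13.5% for Aldoa, 7.51% for Tpi1, 2.55% for Hk1, 0.25% for Eno2 and 0% for Pfkm. How reads that fit several genes were counted is not given in the sources used here.

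The counts of Gapdh and Pgk1 differed between the batches far more than those of the other enzymes. Gapdh, the dehydrogenase that makes the first NADH of the pathway, had 139, 93.8, 26.0 and 2.78 CPM (counts scaled so that every library has the same total) in the 4 Cre somas of batch 1. In the 4 Cre somas of batch 2 it had 1052, 900.5, 1342 and 1462 CPM, 18.2-fold more on average. Pgk1, the kinase of the first ATP-yielding step, had 8.20 to 13.6 CPM in the former and 74.0 to 95.3 CPM in the latter, a 7.48-fold ratio. Both sets of somas are DRG of the same genotype and do not overlap for these 2 genes. The other 8 enzymes had batch ratios between 1.11 for Eno2 and 1.66 for Ldha. Among related genes not on the list, Pgam1 (41.5% repeated windows) had a ratio of 5.90 and Eno1 (72.2%) one of 3.62. Pkm, with 34.4% repeated windows, had a ratio of 1.24. The part of repeated sequence in these ratios was not tested. Libraries were therefore compared within a batch, and a contrast across batches used the somas of each.

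**Figure D1:**
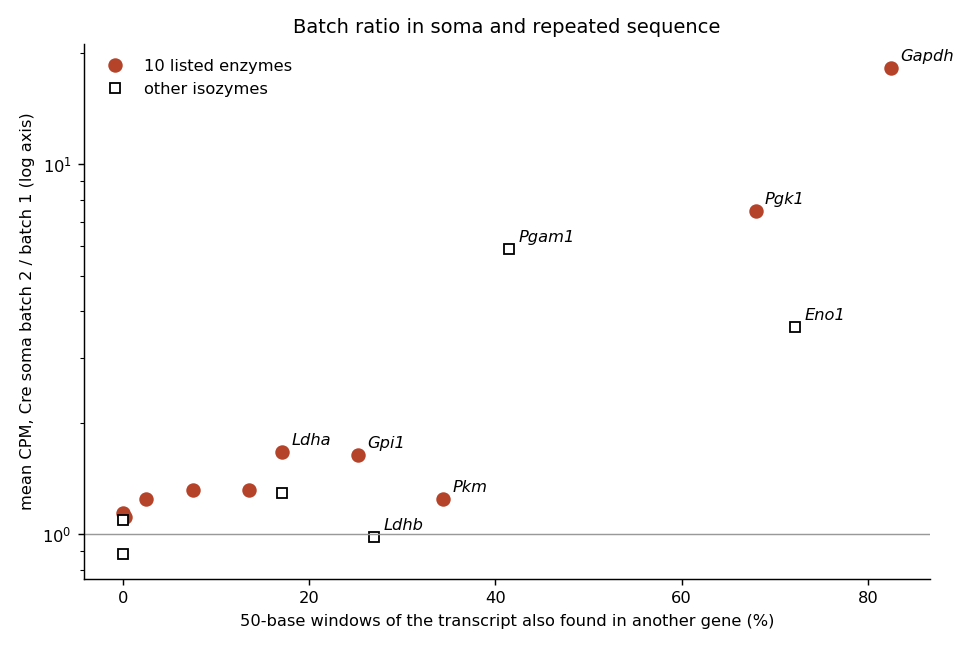
Ratio of mean CPM in Cre somas of batch 2 to batch 1 (log axis) against the percentage of 50-base windows of the transcript found in another gene, for the 10 enzymes (filled circles) and 6 related genes (open squares: Pfkl, Pfkp, Aldoc, Pgam1, Eno1 and Ldhb). Gapdh (18.2) and Pgk1 (7.48), with the most repeated sequence among the 10, lie far above the other 8, which stay between 1.11 and 1.66.

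Library totals ran from 3601399 to 19637292 counts. Scn10a, whose promoter drives the Cre, was at 45.1 to 421 CPM in central axon Cre libraries and 0 to 29.9 CPM in their controls. In peripheral axons it was at 42.1 to 304 CPM with Cre and 0 to 127 CPM without. The range in Cre-negative somas (33.4 to 625 CPM) included that in Cre somas (313 to 505 CPM), so in DRG this gene does not separate the genotypes. Rpl10a, the gene of the tagged protein, ranged from 13.8 to 66.8 CPM in batch 1 Cre libraries and from 111 to 274 CPM in batch 2 Cre libraries. Cre-negative libraries overlapped these ranges, with 0 to 100 CPM in batch 1 and 114 to 183.5 CPM in batch 2. Of the 4 batch 1 Cre-negative somas, 2 share a column heading and carry no number here. Replicate 3 of that group stood apart, with 4934 genes at 10 or more counts and a scaling factor of 0.0547 where the other 7 soma libraries of the batch had 1.30 to 1.78. Central axon Cre libraries held 296 to 1350 summed CPM of 6 astrocyte markers, and peripheral axon Cre libraries 11200 to 30200 summed CPM of 10 Schwann cell markers.

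Per kilobase of transcript, Aldoa was the most abundant of the 10 mRNAs in each of the 4 Cre groups. Aldoa encodes the aldolase that splits fructose bisphosphate into 2 triose phosphates. Its mean level was 1764 ± 273 CPM per kb (SD, n = 4) in batch 2 somas, 556 ± 149 in peripheral axons, 1347 ± 482 in batch 1 somas and 1031 ± 225 in central axons. In batch 2 somas Gapdh (837 ± 182 CPM per kb) and Tpi1 (769 ± 122) followed with overlapping ranges, and Ldha came next at 565 ± 106. These 4 were separated from the rest, since the range of Ldha did not overlap that of Gpi1 (160 ± 13.6 CPM per kb). Below Gpi1 the order in batch 2 somas was Eno2, Pkm, Hk1, Pgk1 and Pfkm, the last at 42.9 ± 8.63 CPM per kb. In peripheral axons Aldoa was followed by Ldha (267 ± 35.7 CPM per kb), Tpi1 (233 ± 64.0) and Gapdh (137 ± 32.3), and each enzyme from Ldha down overlapped the next. In central axons the order was Aldoa, Tpi1 (392 ± 95.0 CPM per kb), Ldha (264 ± 32.5) and Pkm (181 ± 39.9), and the first 3 did not overlap their successors. The lowest of the 10 in the other 3 Cre groups was Pgk1, at 6.38 ± 1.32 CPM per kb in batch 1 somas, 10.03 ± 3.56 in central axons and 19.5 ± 10.3 in peripheral axons.

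**Figure D2:**
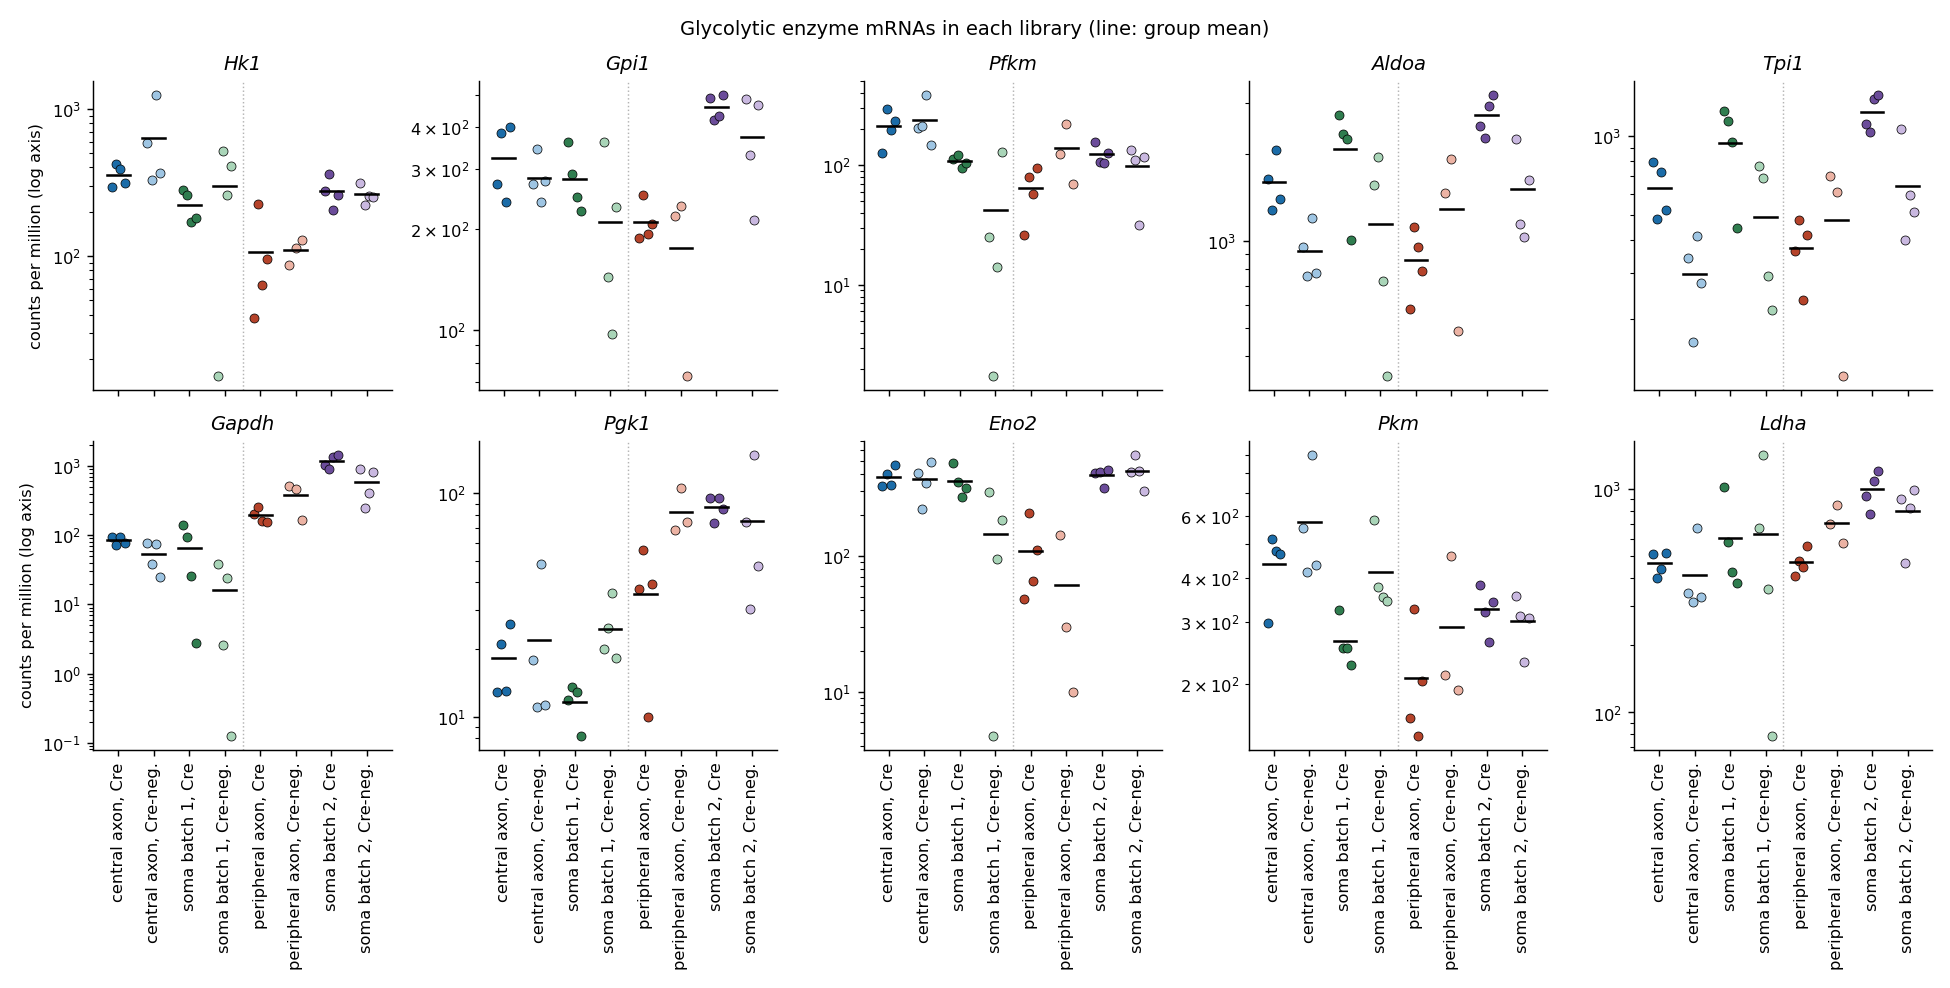
CPM (log axis) of each of the 10 mRNAs in each library of the 8 groups, batch 1 left and batch 2 right of the dotted line, with the group mean as a line. In batch 2 the 4 peripheral axon Cre libraries lie below the 4 Cre somas for every enzyme except Hk1 and Pkm, while in batch 1 the central axon and soma Cre libraries overlap for every enzyme except Hk1 and Pfkm.

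The first comparison asked how the ribosome-bound mRNAs of peripheral axons differ from those of the somas. Of the 10 enzymes, 9 were lower in the peripheral axon Cre libraries than in the batch 2 Cre somas and none was higher. Among all genes tested, 31.2% were called in either direction and 12.5% were called lower. The median log2 fold change was -1.52 over the 10 enzymes and -0.03 over all genes. For 9 of the 10 the scaled values of the 2 groups did not overlap, which held, with axons lower, for 20.1% of all genes.

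In the preparatory steps, Hk1, the brain-type hexokinase that traps glucose as glucose 6-phosphate, had 37.9, 227, 63.7 and 95.2 CPM in the 4 peripheral axon libraries. The 4 somas had 278, 359, 205 and 262 CPM, so that 1 axon library reached the lower edge of the somas. The log2 fold change was -1.53 ± 0.49 (SE, edgeR adjusted p = 0.0329). Hk1 lies on chromosome 10 from 62268855 to 62379908, minus strand. Gpi1, the isomerase that makes fructose 6-phosphate (chromosome 7, 34201330 to 34230336, minus strand), had 188, 252.5, 193.5 and 206.5 CPM in axons against 488, 420, 433.5 and 499 CPM in somas. Every axon library lay well below every soma. Its log2 fold change was -1.32 ± 0.25 (adjusted p = 0.0023). Pfkm, the muscle-type phosphofructokinase of the committed step (chromosome 15, 98092589 to 98132451, plus strand), had 26.3, 79.8, 57.1 and 94.7 CPM against 157.5, 107, 103 and 126 CPM. The highest axon library lay just below the lowest soma. Its log2 fold change was -1.10 ± 0.37 (adjusted p = 0.0396).

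As counted, the enzymes around the triose phosphates had lower point estimates than Hk1, Gpi1 and Pfkm, a difference that was not tested. Aldoa (chromosome 7, 126795234 to 126800751, minus strand) had 582, 1120, 957 and 784 CPM in axons and 2502, 2272, 2950 and 3207 CPM in somas, a log2 fold change of -1.85 ± 0.36 (adjusted p = 0.00296). No axon library came near the lowest soma. Tpi1, which interconverts the 2 triose phosphates (chromosome 6, 124810586 to 124814296, minus strand), had 362, 477, 236 and 420 CPM in axons and 1105, 1032, 1376 and 1428 CPM in somas. Its log2 fold change was -1.94 ± 0.31 (adjusted p = 0.000968). Gapdh (chromosome 6, 125161715 to 125166467, minus strand) had 206, 254, 163 and 154.5 CPM in axons, all far below the somas given above. With a log2 fold change of -2.82 ± 0.33 (adjusted p = 0.000119), or 7.06-fold, it had the lowest log2 fold change of the 10 as counted. The size depends on which genes are counted with it, in 2 sums chosen after seeing the data. Together with the 213 annotated pseudogenes that repeat any 50 bases of its transcript, which held 40.6 ± 12.5 CPM in axons and 128 ± 14.0 CPM in somas, it was -2.70 (adjusted p = 0.000148). With all 222 genes that repeat such bases it was -1.49 (2.81-fold, adjusted p = 0.0048). That is a smaller drop than the point estimates of Aldoa, Tpi1, Eno2, Hk1 (-1.53) and Pgk1 (-1.51). Of those 222, the protein-coding gene Peli2 alone had 330 CPM in axons and 20.5 CPM in somas. Gapdh is often used as a reference gene for other mRNAs.

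In the pay-off phase, Pgk1 (chromosome X, 106187100 to 106203699, plus strand) had 37.5, 55.5, 10.01 and 39.4 CPM in axons against 95.3, 74.0, 94.8 and 84.7 CPM in somas, a log2 fold change of -1.51 ± 0.41 (adjusted p = 0.0158). The groups were apart, and replicate 3 of the axons was the lowest. Eno2 (chromosome 6, 124760053 to 124769673, minus strand) had 48.4, 209, 65.4 and 111 CPM in axons and 412, 414, 320 and 430 CPM in somas. Its log2 fold change of -2.03 ± 0.43 (adjusted p = 0.00471) was the second largest. Pkm, the pyruvate kinase of most tissues (chromosome 9, 59656368 to 59679375, plus strand), had 159, 326, 142 and 203 CPM in axons and 381, 321, 262 and 341 CPM in somas. Axon replicate 2 lay inside the soma range, and Pkm did not pass the test (log2 fold change -0.83 ± 0.30, adjusted p = 0.0575). Ldha, the lactate dehydrogenase subunit that prevails in glycolytic tissues (chromosome 7, 46841475 to 46855627, plus strand), had 406, 478, 446 and 555 CPM in axons and 927, 774, 1087 and 1203 CPM in somas. Its log2 fold change was -1.28 ± 0.29 (adjusted p = 0.006).

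Neuronal and non-neuronal markers moved between the same 2 groups. Of 10 general neuronal markers 9 were lower in peripheral axons, with a median log2 fold change of -1.65, and of 9 nociceptor markers 7 were lower. All 10 Schwann cell markers, all 6 fibroblast markers and all 5 skeletal muscle markers tested were higher. The summed muscle markers ran from 888 to 3850 CPM in the peripheral axon Cre libraries and from 15.8 to 96.2 CPM in the somas. Depth also differed, with 4097863 to 15058971 counts in axons and 15562715 to 19637292 in somas. The part of these differences in the lower enzyme levels was not tested. Across the alternatives the number of enzymes called lower ran from 7 to 10. It was 7 when all groups of the batch were fitted together, where 1404 of all genes were called, against 4818 with the 2 groups alone. Pfkm (adjusted p = 0.133) and Pgk1 (0.0526) lost their calls in that joint edgeR fit. The number was 10 with DESeq2 (39.6% of all genes called), where Pkm had an adjusted p of 0.0101. Hk1 lost its call without peripheral axon replicate 3 (adjusted p = 0.0733) or 4 (0.0723), and without any 1 of the 4 somas (0.0527 to 0.0795). Pfkm lost it without axon replicate 3 (0.0662) or any 1 of the 4 somas (0.0557 to 0.0922). Pkm was called without axon replicate 2 (log2 fold change -1.25, adjusted p = 0.00409).

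Relative to the neuronal markers of the same library, the summed level of the 10 enzymes overlapped between peripheral axons and somas, a description for which no test was made. The ratio of summed enzyme CPM to summed CPM of the 10 general neuronal markers was 0.375 ± 0.149 (SD, n = 4) in peripheral axons, from 0.267 to 0.594. In the Cre somas of batch 2 it was 0.335 ± 0.0346, from 0.292 to 0.373, inside the axon range. In Cre-negative peripheral axons the ratio was higher and more variable, from 0.381 to 2.32 over 3 libraries. Central axon Cre libraries had a ratio of 0.323 ± 0.0749 and their controls 0.349 ± 0.067. The somas of batch 1 had 0.200 ± 0.0489 with Cre and 0.188 ± 0.118 without. As a share of all counts, the 10 enzymes took 0.263% ± 0.0617 of the peripheral axon Cre libraries and 0.782% ± 0.102 of the batch 2 Cre somas. The share was 0.451% ± 0.0315 in central axons and 0.494% ± 0.159 in batch 1 somas with Cre. Without Gapdh and Pgk1 the 4 shares were 0.240%, 0.654%, 0.441% and 0.486%, in the same order.

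**Figure D3:**
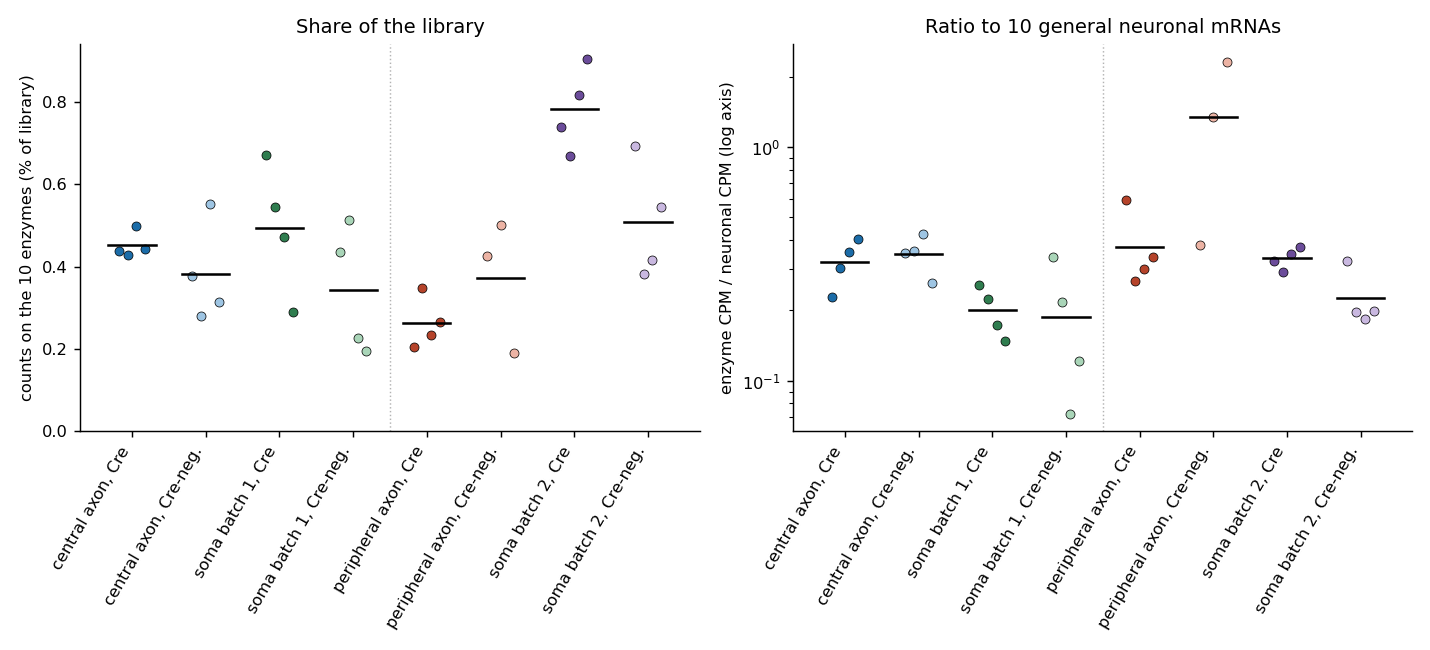
Left, counts on the 10 enzymes as a percentage of each library; right, summed CPM of the enzymes divided by summed CPM of 10 general neuronal markers (log axis), per library in 8 groups with the group mean as a line. The share falls from 0.782% in batch 2 Cre somas to 0.263% in peripheral axons, while the ratio is 0.335 and 0.375.

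The same question was asked of central axons against the batch 1 somas, where no enzyme was called in either direction by edgeR. Among all genes tested 13.7% were called in this comparison. The unadjusted p was under 0.05 for 2 of the 10, against 29.2% of all genes. DESeq2 also called none of the 10, where it called 3752 of all genes. The point estimates were higher for 4 enzymes and lower for 6, with a median log2 fold change of -0.17 against 0.05 over all genes. Tpi1 had 791, 481, 727.5 and 520 CPM in the 4 central axon Cre libraries and 1239, 1134, 944 and 444 CPM in the 4 Cre somas. The axon values lay inside the soma range, and the log2 fold change was -1.02 ± 0.40 (adjusted p = 0.107). Ldha had 510, 399, 437 and 517 CPM in axons and 1019, 581, 424 and 381 CPM in somas (log2 fold change -0.82 ± 0.37, adjusted p = 0.158). Aldoa had 1637, 1283, 2071 and 1400 CPM against 2729, 2344, 2265 and 1009 CPM (log2 fold change -0.84 ± 0.41, adjusted p = 0.187). Soma replicate 4 was the lowest soma for each of these 3 mRNAs, and without it Tpi1 (-1.28, adjusted p = 0.0239) and Aldoa (-1.10, adjusted p = 0.0433) were called lower (17.1% of all genes were called in that fit).

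Point estimates in central axons were above 0 for Pfkm, Hk1, Pkm (0.27 ± 0.29, adjusted p = 0.577) and Pgk1 (0.17 ± 0.44, adjusted p = 0.832). Gpi1 pointed lower (-0.26 ± 0.30, adjusted p = 0.61). Pfkm had 127, 296, 196 and 234 CPM in axons and 112, 120.5, 95.3 and 105 CPM in somas, so that every axon library was above every soma before scaling between libraries. The scaled values overlapped, and the log2 fold change was 0.52 ± 0.29 (adjusted p = 0.253). With scaling by library size alone, which raises the median of all genes from 0.05 to 0.50, Pfkm was called higher (0.985, adjusted p = 0.0375). That fit called 2439 of all genes, against 1990 in the edgeR fit above. Hk1 had 295.5, 425, 390 and 313 CPM in axons and 280, 260, 169 and 182.5 CPM in somas (0.23 ± 0.30, adjusted p = 0.647). Eno2 had 329, 403, 332 and 468 CPM in axons and 482, 350, 271.5 and 318 CPM in somas (-0.35 ± 0.30, adjusted p = 0.469). Gapdh was at 92.8, 72.6, 93.2 and 78.1 CPM in central axons, a narrow range beside that of its 4 somas. Its log2 fold change of -0.08 had an SE of 0.72. Astrocyte markers were higher in these axon libraries for 5 of 6 genes, oligodendrocyte markers for 3 of the 3 tested, Schwann cell markers for 3 of 10 and spinal neuron markers for 5 of 6. The summed spinal neuron markers were at 225 to 418 CPM in these axon libraries and at 91.7 to 252 CPM in the somas. General neuronal markers were lower for 2 of 10 and nociceptor markers for 4 of 9. Their part in the enzyme levels was not tested.

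The difference between the 2 branches was then tested directly, as the axon-to-soma difference of central axons minus that of peripheral axons. Of the 10 enzymes, 7 were called with the higher value on the central side, where 13.1% of all genes were called and 7.2% in that direction, and none was called on the peripheral side. All 10 point estimates were positive, with a median of 1.53 against 0.26 over all genes. Gapdh had the largest difference, 2.86 ± 0.89 on the log2 scale (SE, adjusted p = 0.0387). It was followed by Hk1 (1.93 ± 0.58, adjusted p = 0.0348), Pgk1 (1.86 ± 0.56, adjusted p = 0.0337) and Eno2 (1.85 ± 0.52, adjusted p = 0.0247). Pfkm differed by 1.8 ± 0.47 (adjusted p = 0.0172), Pkm by 1.27 ± 0.41 (adjusted p = 0.0464) and Gpi1 by 1.23 ± 0.38 (adjusted p = 0.0363). Aldoa (1.17 ± 0.52, adjusted p = 0.139), Tpi1 (1.08 ± 0.50, adjusted p = 0.154) and Ldha (0.62 ± 0.46, adjusted p = 0.399) did not pass. These are the 3 enzymes with the lowest point estimates in central axons against soma. The test uses the same Cre libraries as the 2 comparisons above, and each branch was sequenced in its own batch, so that branch and batch cannot be told apart beyond the soma of each batch. Gapdh and Pgk1 are also the enzymes whose counts differed most between the Cre somas of the batches, 18.2-fold and 7.48-fold. The part of that batch difference in their values here was not tested.

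The count of 7 depended on single libraries, while the median difference stayed between 1.33 and 1.79 with any 1 left out. The count stayed at 7 without peripheral axon replicate 2 (2856 of all genes called) and was 5 or 6 without 4 other libraries. Among these, it was 6 without central axon replicate 1 (2142 of all genes called) or peripheral axon replicate 1 (2472), and 5 without batch 1 Cre soma replicate 1 (2186). It was 1 without central axon replicate 4, without batch 1 Cre soma replicates 2 or 3, or without batch 2 Cre soma replicates 7 or 8, each left out alone. Over all genes, 2187 of 16725 (13.1%) were called with every library. Without central axon replicate 4 it was 1725 genes, and without batch 1 Cre soma replicates 2 or 3 it was 1951 and 2086. A count of 1 in 10 enzymes is close to the 7.2% of all genes called higher on the central side with every library. The count of enzymes was 2 without peripheral axon replicates 3 or 4 or batch 2 Cre soma replicate 5. How many of all genes were called without peripheral axon replicates 3 or 4 or without a batch 2 Cre soma is not reported here. It was 3 without central axon replicate 2 (1977 of all genes called) or batch 1 Cre soma replicate 4 (1721), and 4 without central axon replicate 3 (1664). DESeq2 called 7 (20% of all genes), and scaling by DESeq2's size factors within edgeR called 5 (2235 of all genes called). No enzyme changed direction in any of these fits. Gapdh was no longer called when summed with all 222 genes that repeat its sequence (1.34, adjusted p = 0.122), and was with the 213 pseudogenes (2.55, adjusted p = 0.015). Of the markers, 2 of 10 for neurons in general, 2 of 6 for spinal neurons and 4 of 6 for astrocytes were higher on the central side. On the same side 6 of 10 for Schwann cells, 4 of 6 for fibroblasts and all 5 tested for muscle were lower. Their part in the difference was not tested.

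**Figure D4:**
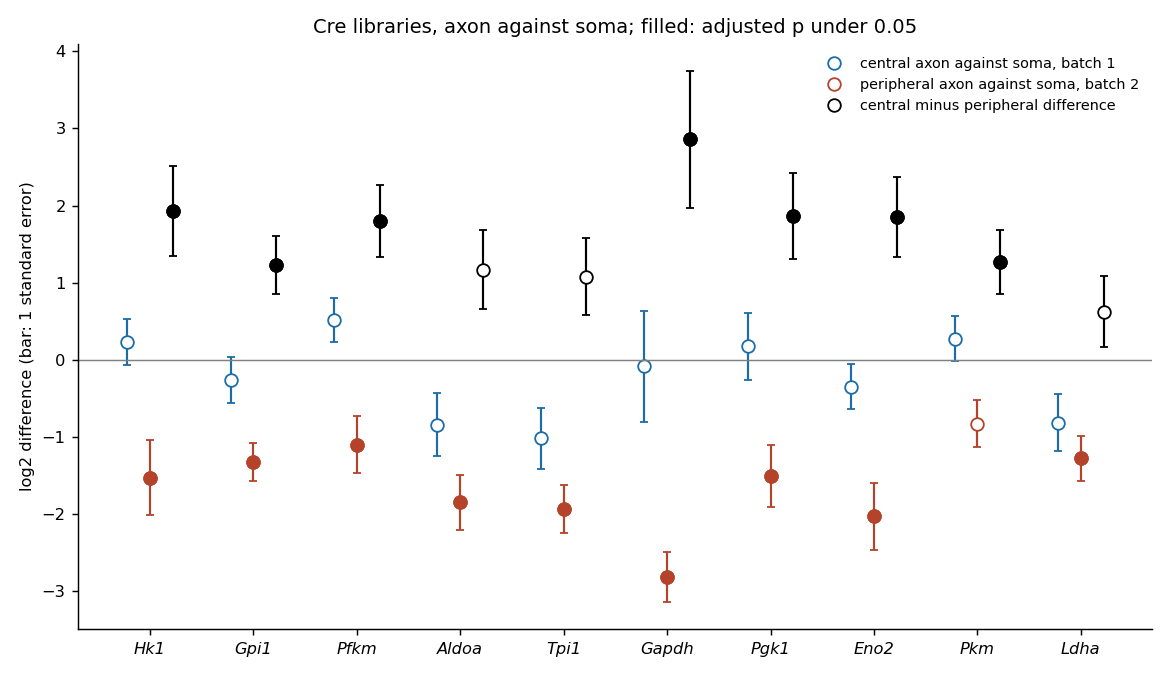
Log2 difference with 1 standard error for each enzyme in central axon against soma (blue), peripheral axon against soma (red) and the difference between the 2 (black), Cre libraries only; filled points have an adjusted p under 0.05. Filled red points mark 9 enzymes, filled black points mark 7, and no blue point is filled.

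Cre-negative libraries show what the pulldown recovers without a tagged ribosome. In peripheral axons none of the 10 enzymes differed by edgeR between Cre and Cre-negative libraries (0% of all genes were called). None had an unadjusted p under 0.05 (3.68% of all genes had), and DESeq2 called none (89 of all genes were called). Gapdh was at 522, 473 and 165 CPM in the 3 Cre-negative libraries, above all 4 Cre libraries in 2 of them. Pgk1 was at 68.2, 106 and 74.2 CPM there, above all 4 Cre libraries (2.59% of all genes were apart in that direction), with a log2 fold change of -1.19 ± 0.59 for Cre over control (unadjusted p = 0.0712). Aldoa was at 1470, 1921 and 488 CPM without Cre, and Eno2 at 143, 30.2 and 10.02 CPM. The summed muscle markers reached 28000 CPM in replicate 2 of these controls and 1090 CPM in the lowest. The median log2 fold change of the 10 was -0.49, and -0.01 without that replicate.

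In central axons 0 of 10 differed from the Cre-negative libraries by edgeR, where 0.0141% of all genes were called. DESeq2 called none of the 10, where it called 438 of all genes. For 2 the unadjusted p by edgeR was under 0.05, against 4.82% of all genes. These 2 were Tpi1 and Aldoa, whose groups did not overlap (higher in Cre for 6.77% of all genes). Tpi1 was at 341, 164, 415 and 274 CPM in the 4 Cre-negative libraries, below all 4 Cre libraries (log2 fold change 1.14 ± 0.37, unadjusted p = 0.0103). Aldoa was at 951, 757, 1206 and 776 CPM without Cre (0.85 ± 0.29, unadjusted p = 0.0136). Hk1 pointed the other way, at 587.5, 328.5, 1241 and 369 CPM without Cre (-0.79 ± 0.42). The other 7 enzymes had log2 fold changes between -0.36 and 0.70.

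In the somas of batch 2 all 10 point estimates were higher with Cre, although none passed the edgeR test, where 0% of all genes were called. For 3 the unadjusted p was under 0.05, against 16.4% of all genes, and DESeq2 called 2, Aldoa and Tpi1, with 8.57% of all genes. Gapdh had 920, 246, 406.5 and 819 CPM in the Cre-negative somas, all but the first below the lowest Cre soma (1.25 ± 0.43, unadjusted p = 0.0135). Tpi1 had 1060, 401, 592.5 and 514 CPM there (1.21 ± 0.36, unadjusted p = 0.00555). Aldoa had 2254, 1147, 1035 and 1628 CPM (1.11 ± 0.36, unadjusted p = 0.00975). Replicate 5 was the highest Cre-negative soma for these 3, with 18080478 counts where the other 3 had 3601399 to 4515978. Without it edgeR called 3 enzymes higher with Cre, Tpi1 (1.61), Gapdh (1.58) and Aldoa (1.41), with 11.7% of all genes. The median log2 fold change of the 10 was 0.55 against 0.06 over all genes, and 0.31 with scaling by library size alone, where Eno2 pointed lower (-0.11). For 4 enzymes the scaled values did not overlap, with Cre higher, as for 8.12% of all genes. Between the same groups the median log2 fold change was -1.96 for Schwann cell, -1.82 for satellite glia, -3.00 for fibroblast, -2.40 for muscle and -3.14 for erythrocyte markers, none of which was called, and 0.32 for general neuronal markers. Their part in the enzyme levels was not tested.

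In the somas of batch 1 the comparison with Cre-negative libraries turned on replicate 3 of the controls. None of the 10 was called by edgeR (4.42% of all genes were), and 1 had an unadjusted p under 0.05 (15% of all genes had). DESeq2 called none of the 10, where it called 1544 of all genes. The median log2 fold change was -2.65 with all libraries, 0.71 without that replicate and 0.63 with library size alone. In Cre-negative somas of batch 1 Pfkm was at 25.02, 1.73, 14.1 and 129 CPM and Eno2 at 295, 4.75, 94.5 and 184 CPM, the second value of each being replicate 3. Ldha was at 668, 1424, 357 and 78.5 CPM, with replicate 3 the highest. Subtracting the controls from the axon-to-soma difference gave no call in either batch by edgeR, where 0% of all genes in batch 1 and 0.00636% in batch 2 were called. DESeq2 also called none of the 10, where it called 556 of all genes in batch 1 and 445 in batch 2. In batch 2 the difference of Cre over control pointed lower in axons for 9 of 10 enzymes, with a median of -1.40 against 0.13 over all genes. Of these, 6 had an unadjusted p under 0.05, where 2.51% of all genes had one in that direction. Gapdh was the lowest (-2.26 ± 0.67), and Eno2 pointed higher (0.71 ± 0.87). Without replicate 2 of the Cre-negative peripheral axons the median was -0.94. In batch 1 no enzyme had an unadjusted p under 0.05, against 20.4% of all genes, and the median of 0.36 went to 2.88 with DESeq2's size factors in edgeR, to -0.15 with library size alone, and to -0.56 without replicate 3 of the Cre-negative somas.

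Isozyme shares do not depend on scaling between libraries. Each is the percentage that 1 isozyme takes of the CPM per kb summed over the isozymes of its enzyme. Of 10 shares compared between axon and soma, none passed an exact two-sided permutation test after Benjamini-Hochberg adjustment, and with 4 against 4 libraries the smallest possible exact p is 0.0286. In central axons Ldha made up 66.7%, 44.4%, 41.4% and 40.7% of lactate dehydrogenase, and in batch 1 somas 86.7%, 76.7%, 70.5% and 81.6%. The groups did not overlap (difference -30.6 percentage points, exact p = 0.0286, adjusted p = 0.0571). The remainder was Ldhb, the subunit of oxidative tissues. Aldoa made up 86.8%, 70.5%, 78.8% and 62.2% of aldolase in central axons and 92.5% to 93.6% in somas (difference -18.4 points, exact p = 0.0286, adjusted p = 0.0571). Aldoc held 25.4% ± 10.5 (SD, n = 4) of aldolase in central axons and 46.5% ± 6.07 in their Cre-negative controls, beside 7.00% ± 0.472 in batch 1 Cre somas. In the same order, the Ldhb share was 51.7% ± 12.4, 64.5% ± 5.64 and 21.1% ± 6.92. For both, the mean share in Cre axons lay between controls and somas. So did, in the same order, the mean shares of Hk1 (96.1%, 98.4% and 93.5%) and Eno2 (49.0%, 47.8% and 52.6%). The Pfkm share did not, at 22.7% in central axons, 37.4% in their controls and 26.0% in somas.

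In peripheral axons Ldha made up 39.3%, 72.3%, 60.3% and 64.7% of lactate dehydrogenase and in somas 83.7% to 89.3% (difference -28.1 points, exact p = 0.0286, adjusted p = 0.0571). In Cre-negative peripheral axons it averaged 63.6%, above the 59.2% with Cre. Hk1 made up 78.8%, 92.1%, 87.3% and 81.1% of hexokinase against 96.2% to 98.5% in somas (difference -12.5 points, the same exact and adjusted p). Most of the remainder was Hk2, the insulin-responsive hexokinase of muscle and fat, at 13.2% ± 5.76 in axons and 0.203% ± 0.0666 in somas. Pfkm took 33.2% ± 5.65 of phosphofructokinase in axons and 24.7% ± 1.13 in somas (difference 8.55 points, exact p = 0.0286, adjusted p = 0.0571). Eno2 took 7.87%, 22.2%, 17.9% and 21.1% of enolase against 21.7% to 26.9% (exact p = 0.0571, adjusted p = 0.0816). Eno3 took 29.1% ± 10.6 of enolase in peripheral axons, 42.0% ± 36.2 in their 3 controls and 1.43% ± 0.277 in the somas. Aldoa took 96.2% ± 0.900 of aldolase in peripheral axons and 94.2% ± 0.659 in somas. Without peripheral axon replicate 1 the adjusted p was 0.0476 for Hk1, Pfkm, Aldoa and Ldha, and without replicate 2 it was 0.0476 for Hk1, Pfkm, Eno2 and Ldha. The enolase shares compare with Eno1, 72.2% of whose 50-base windows are repeated in other genes.

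**Figure D5:**
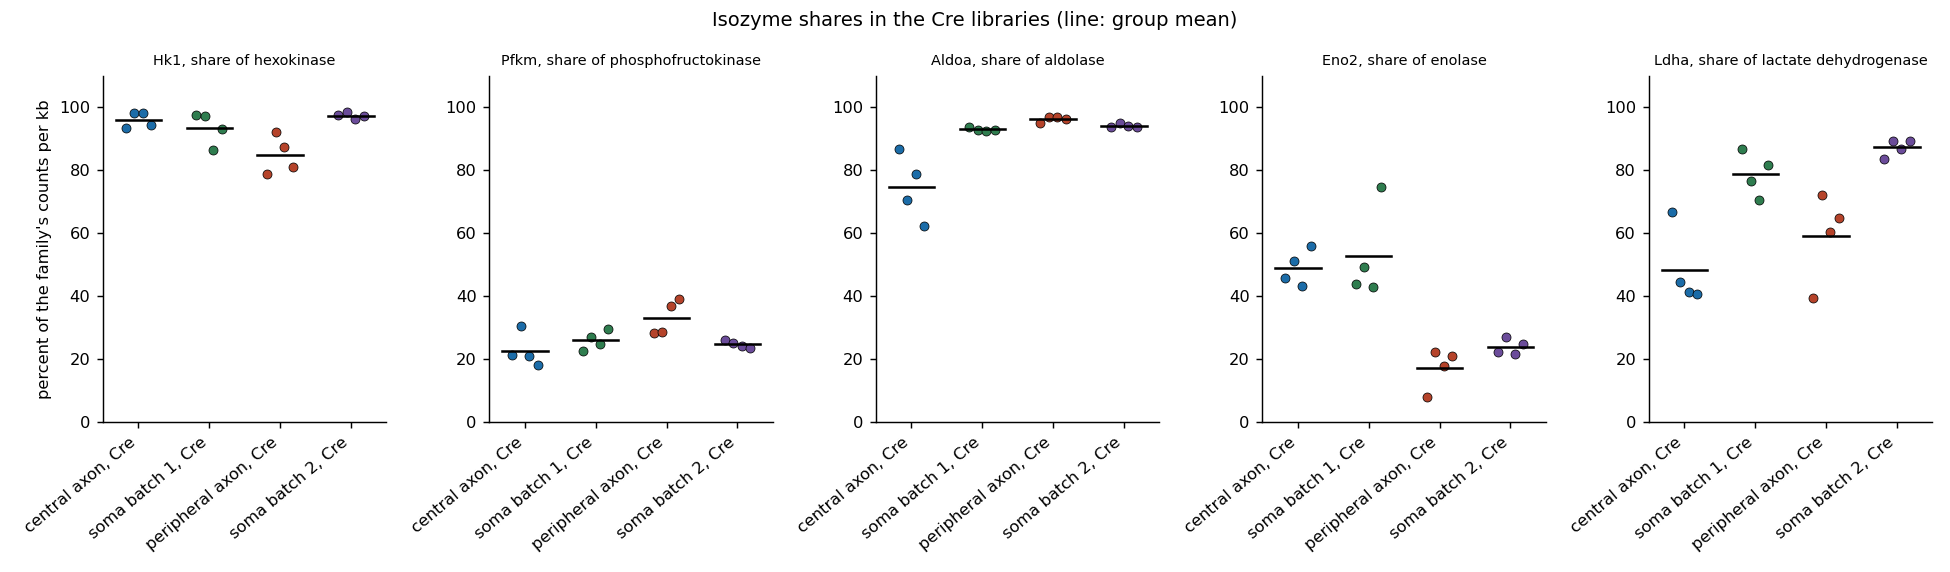
Share of Hk1, Pfkm, Aldoa, Eno2 and Ldha in the summed CPM per kb of the isozymes of their enzyme, in each Cre library of 4 groups, with the group mean as a line. Ldha is lower in both axon groups (48.3% and 59.2%) than in their somas (78.9% and 87.3%), Aldoa is lower in central axons, and Hk1 is lower in peripheral axons.

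Beyond the 10, 5 lists of related genes were counted: other isozymes, glucose, lactate and pyruvate transporters, regulators, the pyruvate dehydrogenase complex, and the branches off glycolysis, 64 genes in all. In peripheral axons against soma 6 of 58 tested were called higher and 18 lower, where 31.2% of all genes were called. The isozymes split, with 4 of 16 higher and 6 lower. Aldoc was lower (57.9 ± 3.25 against 306 ± 72.8 CPM, log2 fold change -2.60, adjusted p = 7.86e-05), as were Eno1 (-2.14) and the phosphoglycerate mutase Pgam1 (-2.85). The muscle mutase Pgam2 was higher (77.5 ± 59.7 against 2.37 ± 1.36 CPM, log2 fold change 4.83), as was Hk2 (16.6 ± 5.29 against 0.771 ± 0.371 CPM, 4.25). Of 18 genes of the branches 8 were lower and 2 higher. Of 5 pyruvate dehydrogenase genes 3 were lower, of 7 transporters 1 was lower, and of 12 regulators none was called by edgeR. In central axons against soma 4 of 52 were higher and 1 was lower, a smaller share than the 13.7% of all genes. The 4 were Bpgm (1.15), Ldhb (1.34), Pfkl (1.11) and Aldoc (1.30, adjusted p = 0.0478), and the 1 was Taldo1 of the pentose phosphate pathway (-0.98). Aldoc was at 984 ± 439 CPM in central axons and 280 ± 94.9 CPM in batch 1 somas. In the direct test between branches 12 of 59 were higher on the central side, led by Aldoc (4.08 ± 0.51 on the log2 scale, adjusted p = 0.000169) and the platelet-type phosphofructokinase Pfkp (2.62 ± 0.47, adjusted p = 0.00177), and 5 were lower, beside 13.1% of all genes called.

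The promoters of the 10 genes were read for ACGTG, the core of the site bound by hypoxia-inducible factor, a known activator of glycolytic genes. RefSeq windows of GRCm38.p6 covering 250 bases before a start site were found for all 10 genes, 18 windows in all. The letters were searched on both strands, and a CACGTG counts on each of them. They occurred in 7 of the 18 windows, where 16.6% of all 32851 windows hold them. These 7 belong to 5 genes, and 2 of them are overlapping windows of Aldoa that hold the same site. Ldha is shown because it holds the most matches, 5, and Pgk1, with 2, because its counts differ so much between batches. Capitals mark the matches. Of the others, Pfkm also has a window with 2.
Ldha, chr7:46845554-46845803, plus strand: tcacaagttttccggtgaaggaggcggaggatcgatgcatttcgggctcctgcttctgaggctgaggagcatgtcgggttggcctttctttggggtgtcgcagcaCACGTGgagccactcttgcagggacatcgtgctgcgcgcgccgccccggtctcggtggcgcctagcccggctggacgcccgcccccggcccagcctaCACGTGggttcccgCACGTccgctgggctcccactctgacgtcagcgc
Pgk1, chrX:106186850-106187099, plus strand: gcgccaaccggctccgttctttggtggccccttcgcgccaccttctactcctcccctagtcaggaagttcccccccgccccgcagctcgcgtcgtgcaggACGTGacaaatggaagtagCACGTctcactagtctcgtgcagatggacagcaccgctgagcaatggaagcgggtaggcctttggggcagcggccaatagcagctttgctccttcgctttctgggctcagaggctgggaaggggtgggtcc
Both genes were lower in peripheral axons than in soma, as were Hk1, Gpi1, Tpi1, Gapdh and Eno2, whose windows hold no match. A match describes the letters and not a bound site.

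The genes most like the 10 were sought among 8427 others with a mean of at least 20 CPM, as a description. Likeness was the correlation of log2 CPM with the mean of the 10 over the libraries of a batch, taking the lower of the 2 batches. Eno1 ranked first, with Pearson's r of 0.833 over the 16 libraries of batch 1 and 0.916 over the 15 of batch 2. Rwdd2a (0.822 and 0.866), Dctn1 (0.807 and 0.832), Cend1 (0.813 and 0.802) and Samd10 (0.820 and 0.801) followed. The libraries share tissue, genotype and depth differences, which these values include.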

How the data were processed

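The authors deposited raw counts per gene in 1 table per batch, 31 libraries in all. Per the labels' protocols, TRAP RNA was amplified with a SMART-Seq v4 kit. STAR 2.7.2b and mm10 are listed per the submitters' processing notes. The gene counter, annotation, strand setting and treatment of reads fitting several genes are not given in the sources used here. Without strand, reads of Gpi1 (11.5% of exon length under the opposite-strand gene Gm26762) cannot be told from that gene, and Pfkm (10.2%, Gm26513) and Pkm (15.3%, Gm49759) share exons with genes on their own strand.

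Members and lists were chosen with earlier results of these data known. Each comparison was fitted on its own groups over all genes with edgeR 4.0.16 (R 4.3.3): filterByExpr (minimum count 10), TMM scaling, quasi-likelihood test and Benjamini-Hochberg adjustment, called at an adjusted p under 0.05. The contrasts used all libraries of a batch or all 16 Cre libraries. Groups were called not overlapping on TMM-scaled CPM. Shares and levels per kb used the principal transcript length. The fit was tested on simulated counts of peripheral axon against soma (15056 genes). It recovered 0 of 96 with a true log2 change of 1 and 23 of 97 with one of 2. Few genes were changed there, while 31.2% of all genes were called in the data. The Benjamini-Hochberg adjustment is stricter when fewer genes change, so these recoveries do not measure the power of the real comparison. A gene not called may still differ. Alternatives were RLE scaling, library size alone, no low-count filter, DESeq2 1.42.0, a joint fit of a batch, the replicate number as a block, and leaving out each replicate. From the wider lists, the text names up to 5 called genes per comparison with the smallest p, and as most alike the 5 genes with the highest correlation. Depth was 3601399 to 19637292 counts, so that 3 counts correspond to 0.153 to 0.833 CPM, counting error only. A coding stretch of 1 further gene is not reported here.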

Additional observations from a re-analysis of the deposited data

Results flagged for a closer look

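In 70 sets of 4 libraries examined for the 10 enzymes, 3 held a library whose gap to the nearest other took up more of the range of its group than Dixon's 95% critical value, a limit that chance passes in about 1 in 20 sets. Eno2 was lowest in batch 2 Cre soma replicate 7, at 320 CPM where the other 3 had 412 to 430 CPM. Pkm was highest in batch 1 Cre-negative soma replicate 1, at 585 CPM where the others had 344 to 377 CPM. Ldha was highest in Cre-negative central axon replicate 3, at 670 CPM where the others had 313 to 343 CPM.

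The axon-to-soma difference itself differed between central and peripheral axons for 7 enzymes by edgeR. The log2 differences, central minus peripheral, were 1.93 for Hk1, 1.23 for Gpi1, 1.8 for Pfkm, 2.86 for Gapdh, 1.86 for Pgk1, 1.85 for Eno2 and 1.27 for Pkm. Branch and batch coincide, beyond what the somas of each batch correct.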

How the results depend on the processing

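Leaving out 1 library at a time, the number of enzymes called was 7 to 10 for peripheral axon against soma, 0 to 2 for central axon against soma, 0 to 3 for batch 2 somas with and without Cre, and 1 to 7 for central minus peripheral. DESeq2 called 2 enzymes in batch 2 somas (8.57% of all genes), and library size alone called 1 in central axon against soma (2439 of all genes called). The causes were not tested. No direction changed in peripheral axon against soma or in central minus peripheral. In central axon against soma the all-gene median shifts from 0.05 to 0.50 when only library size is used, so that values near 0 change sign with it. That scaling turned the log2 fold change of central axon against soma to 0.21 for Gpi1, 0.366 for Gapdh and 0.114 for Eno2, of peripheral axon against control to -0.0449 for Hk1, and of batch 2 somas to -0.11 for Eno2. With the batch fitted jointly (median of all genes 0.43), central axon against soma was 0.0847 for Gpi1 and 0.228 for Gapdh.

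Same-numbered libraries were not treated as pairs, since in no comparison did every such pair correlate above 0.1. The mean r was highest for central axons and somas with Cre, 0.135 against -0.045 for other numbers. With the replicate block, Pgk1 was 0.0285 in central axon against control, Hk1 -0.18 and Tpi1 0.138 in peripheral axon against control, and Gapdh 0.729 in central axon against soma, and no count of enzymes called moved. No paired analysis was possible for peripheral axon against soma because the groups share no numbers.

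Ranges that cross 0 when 1 library was left out were, for central axon against control, -0.319 to 0.196 (Pfkm), -0.467 to 0.455 (Pgk1) and -0.0911 to 0.276 (Eno2). For peripheral axon against control they were -0.669 to 0.348 (Hk1), -0.0884 to 0.691 (Gpi1) and -0.789 to 0.227 (Pkm). For central axon against soma they were -0.499 to 0.632 (Gapdh) and -0.0867 to 0.301 (Pgk1), and for the batch 2 contrast -0.719 to 0.0949 (Gpi1). The Eno2 share in central axons less that in somas ran from -6.93 to 3.7 points. In peripheral axons less somas, shares ran from -14.9 to -10.5 (Hk1), 6.58 to 10.2 (Pfkm), 1.82 to 2.48 (Aldoa), -8.28 to -3.5 (Eno2) and -32.5 to -21.5 points (Ldha). The batches differ in depth and in the counts of Gapdh and Pgk1, which limits comparison across them.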
